A study of Rattus norvegicus with 6 samples.

Results

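Transcripts of 5 neuronal cytoskeleton and axon growth genes were followed in rat spinal cord after injury: Nefl, Nefm and Nefh, which encode the light, medium and heavy neurofilament subunits, Map2, and Gap43. The genes were taken by their Ensembl IDs, listed beside each gene below. No value entered the rule, but the genes were chosen with earlier results of these data known. All 5 were among the 22526 genes of the deposited table, and all 5 were among the 19515 tested genes, those that reached a normalized count of 1 in 3 or more libraries. A normalized count is the number of reads of a gene divided by a size factor that evens out library depth, read back from the log2 values that the authors deposited. RNA had been taken, 2 weeks after a spinal cord injury, from the cord of 6 adult female rats of the Sprague-Dawley strain. In 3 rats the lesion held a decellularized optic nerve scaffold, a piece of optic nerve whose cells had been removed (DON). In the other 3 rats it held the same kind of scaffold bearing Apt19S, an aptamer, that is, a folded single-stranded nucleic acid that binds a target (A-DON). All rats thus carried both an injury and a scaffold, and DON is the only reference. Each library came from 1 rat. How far the dissected piece reached into scaffold, scar and spared cord is not given in the sources used here.

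Neurofilaments are the main intermediate filaments of mature neurons. The light subunit forms the core of the filament with the medium and heavy subunits, whose long phosphorylated tails project sideways, and the filaments set the caliber of myelinated axons. In development the light and medium subunits appear before the heavy one. Map2 protein binds microtubules in dendrites and cell bodies and is a common label of neurons. Gap43 protein sits under the membrane of growth cones and is a classical marker of growing and regenerating axons, although Schwann cells can make it too. Most spinal cord axons have their cell bodies, and therefore most of their mRNA, in the grey matter, in the brain or in the dorsal root ganglia.

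Map2 and Gap43 rose in A-DON, and the neurofilament genes did not pass the test. Mean log2 fold changes were 2.35 for Gap43, 2.09 for Map2, 1.89 for Nefm, 1.76 for Nefl and 0.46 for Nefh. Of the 5 genes, 2 passed the threshold (limma, Benjamini-Hochberg adjusted p under 0.05 over all tested genes), both higher in A-DON, beside 18.9% of all tested genes called higher, 16.6% called lower and 35.5% called in either direction. Groups did not overlap in 3 of the 5 genes (Nefl, Map2 and Gap43), all higher in A-DON, beside 28.0% of all tested genes. The median log2 fold change of the 5 genes was 1.89, against -0.02 over all tested genes. All 5 were read deeply: 350 tested genes, the 5 included, had a mean log2 value over both groups at or above the lowest of the 5, not adjusted for transcript length. Of these abundant genes 22.9% were called higher and 25.4% lower. The lowest mean was that of Gap43, which its A-DON values raised: in DON replicates 1 to 3 it ranked 1789, 1300 and 1348 by count. Since bulk tissue was sequenced, fewer cells of a type and less RNA per cell cannot be told apart. Markers of neurons, glia, Schwann cells and other cell types could not be located in the table, which names no genes, so their part in these differences was not tested.

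**Figure D1:**
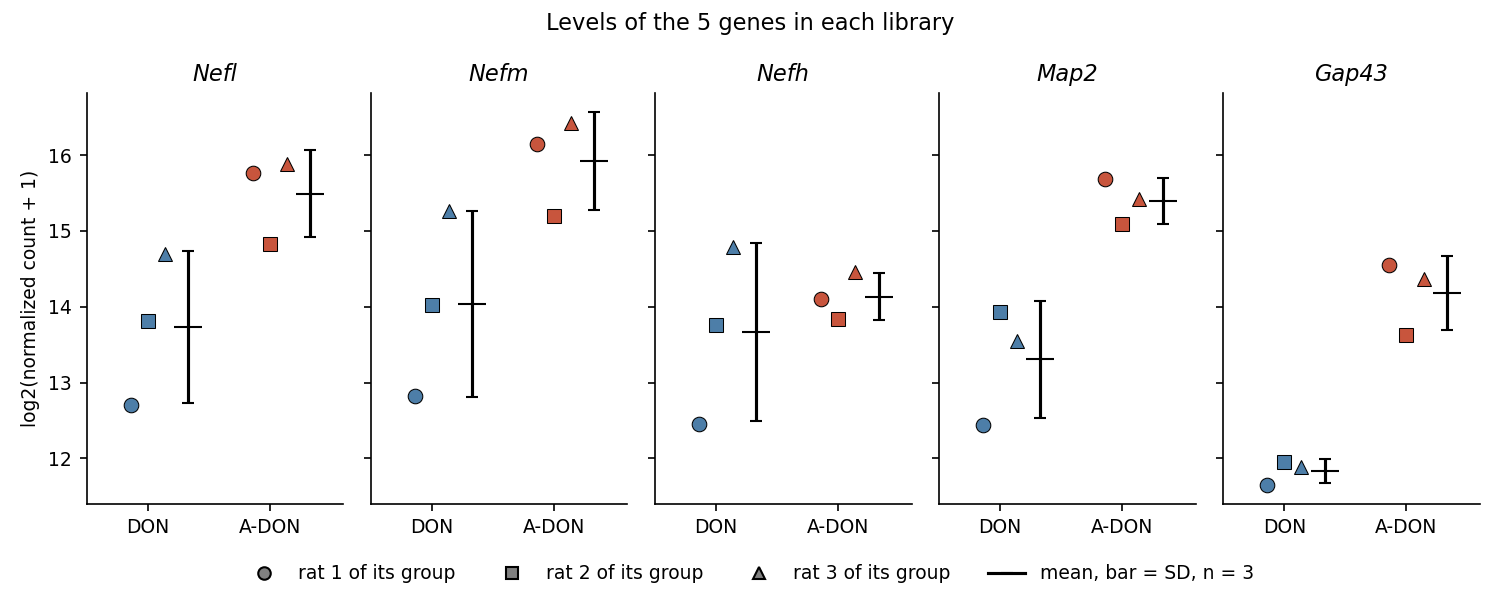
Levels of the 5 genes in each library, as log2(normalized count + 1); circles, squares and triangles are rats 1, 2 and 3 of a group, and black bars give the mean and SD of 3 rats. Gap43 lies between 11.65 and 11.95 in DON and between 13.63 and 14.55 in A-DON, while Nefh overlaps between the groups.

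Nefl (ENSRNOG00000013658), the subunit on which filament assembly depends, had 6648, 14417 and 26510.4 normalized counts in DON replicates 1, 2 and 3. In A-DON replicates 1, 2 and 3 it had 55743, 29107 and 60308. The groups did not overlap, but the highest DON rat and the lowest A-DON rat lay close together. The means were 15858 ± 10009 in DON and 48386 ± 16851 in A-DON (SD, n = 3 each). The log2 fold change was 1.76 ± 0.55 (standard error, here and below), with a 95% interval of 0.41 to 3.10, a fold of 3.38, and the limma adjusted p was 0.052, just outside the threshold. Nefl passed with equal library totals (adjusted p = 0.047), with quantile normalization (0.039), with limma's voom on the recovered reads (0.048) and without A-DON replicate 2 (0.033). Over all alternatives its adjusted p ran from 0.033 to 0.16.

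Nefm (ENSRNOG00000013916), the medium subunit, had 7211, 16677 and 39378 normalized counts in DON replicates 1 to 3 and 72558, 37559 and 88023 in A-DON replicates 1 to 3. DON replicate 3 lay above A-DON replicate 2, so the groups overlapped. The log2 fold change was 1.89 ± 0.66, with a 95% interval of 0.28 to 3.50 and a limma adjusted p of 0.068. It passed with quantile normalization (adjusted p = 0.041) and without A-DON replicate 2 (0.047), and without DON replicate 1 the log2 fold change was 1.28 (0.13). In RefSeq's gene table for the GRCr8 rat assembly Nefl and Nefm are neighbours, with 1 pseudogene, Slc25a3-ps1, between them.

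Nefh (ENSRNOG00000008716), the heavy subunit with the longest tail, had 5589, 13859 and 28353 normalized counts in DON replicates 1 to 3. In A-DON replicates 1 to 3 it had 17529, 14644 and 22439, all inside the DON range. The log2 fold change was 0.46 ± 0.58 (standard error), and the limma adjusted p was 0.55. The 95% interval was -0.95 to 1.88, up to a fold of 3.67. The log2 fold change of Nefl lies inside this interval, that of Nefm barely above its upper end, and those of Map2 and Gap43 above it. The interval of 1 gene does not test a difference between genes, for which ratios were used below. Without DON replicate 1 the log2 fold change was -0.15 (limma adjusted p = 0.78), and without DON replicate 3 it was 1.03 (0.15).

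Map2 (ENSRNOG00000011841) had 5538, 15627 and 11955 normalized counts in DON replicates 1 to 3. In A-DON replicates 1 to 3 it had 52721, 34772 and 43753, and every A-DON rat exceeded the highest DON rat. In log2 values the DON rats ran from 12.44 to 13.93, and the lowest A-DON rat stood at 15.09. It rose from 11040.3 ± 5107 (SD, n = 3) to 43749 ± 8974 (SD, n = 3), a log2 fold change of 2.09 ± 0.40 (standard error; limma adjusted p = 0.017). The call was lost without A-DON replicate 1 (adjusted p = 0.076), A-DON replicate 3 (0.075) or DON replicate 3 (0.055), at log2 fold changes of 1.95, 2.08 and 2.21.

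Gap43 (ENSRNOG00000001528) had the largest fold change of the 5 genes. DON replicates 1 to 3 had 3208, 3969 and 3793 normalized counts, and A-DON replicates 1 to 3 had 24005, 12646 and 21162. The lowest A-DON rat was far above the highest DON rat. Gap43 rose from 3657 ± 398 (SD, n = 3) to 19271 ± 5911 (SD, n = 3), a log2 fold change of 2.35 ± 0.26 (standard error). This is a fold of 5.10 (95% interval 3.29 to 7.92), and the limma adjusted p was 0.0087. Its log2 fold change stood at percentile 94.5 of all tested genes, that of Map2 at 93.1. The neurofilament genes stood at 91.7 (Nefm), 90.7 (Nefl) and 70.5 (Nefh). Without A-DON replicate 1 or 3 the call of Gap43 was lost, with adjusted p of 0.0503 and 0.060 and log2 fold changes of 2.17 and 2.26. In those fits 0.179% and 0.0615% of all tested genes passed. Without A-DON replicate 2 the adjusted p was 0.00063, in a fit that called 47.6% of all tested genes.

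**Figure D2:**
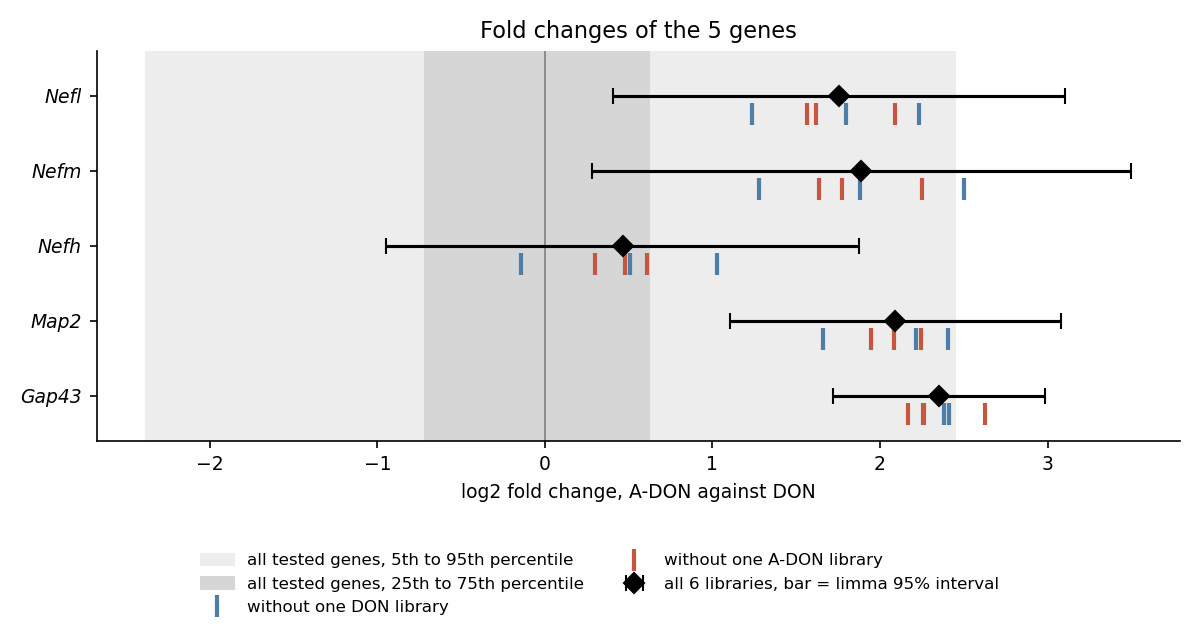
Log2 fold change of each gene between A-DON and DON, with limma's 95% interval (black) and the values after leaving out 1 DON library (blue) or 1 A-DON library (red); grey bands hold the central range of all tested genes. Gap43 has the narrowest interval, 1.72 to 2.99, and the interval of Nefh spans 0.

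The DON rats differed from each other far more in the neurofilament genes than in Gap43. Within DON the highest rat exceeded the lowest by 3.99-fold in Nefl, 5.46-fold in Nefm, 5.07-fold in Nefh, 2.82-fold in Map2 and 1.24-fold in Gap43. The SDs on the log2 scale were 1.00, 1.22, 1.17, 0.78 and 0.16, where the median over the 350 abundant genes was 0.22. Only 3 to 6 of those 350 genes had a larger SD within DON than a neurofilament gene, 15 had a larger SD than Map2, and 229 had a larger SD than Gap43. The 350 genes were taken by their level over both groups, and Gap43 is among them through its A-DON values. Its SD within DON was not compared with genes of a like level in DON. Neurofilament reads together made up 0.0654%, 0.155% and 0.320% of the library in DON replicates 1 to 3, and 0.524%, 0.302% and 0.611% in A-DON replicates 1 to 3. Thus DON rats with very different neurofilament levels had nearly the same level of Gap43. Within A-DON the highest rat exceeded the lowest by 2.07-fold in Nefl, 2.34-fold in Nefm, 1.53-fold in Nefh, 1.52-fold in Map2 and 1.90-fold in Gap43. The small spread of Gap43 was thus limited to DON: within A-DON, 49 of the 350 abundant genes had a larger SD.

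A single rat was lowest of its group for every gene. DON replicate 1 was the lowest DON library in 5 of 5 genes, as it was for 39.0% of all tested genes and 51.1% of the abundant ones. A-DON replicate 2 was the lowest A-DON library in 5 of 5 genes, as it was for 44.5% of all tested genes and 56.3% of the abundant ones. The values without each of these rats are given above where they change a call.

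The 3 neurofilament genes encode parts of one filament, and the Nefh share of their reads was lower in every A-DON rat than in any DON rat. In every library the reads of Nefl, Nefm and Nefh were added and the share of each was taken, which does not depend on how libraries are scaled. Counts were not divided by transcript length, so the shares compare libraries and not the subunits with each other. Nefh held 28.7%, 30.8% and 30.1% of the neurofilament reads in DON replicates 1 to 3, and 12.02%, 18.0% and 13.1% in A-DON replicates 1 to 3. The nearest rats of the 2 groups, A-DON replicate 2 and DON replicate 1, were thus well apart, and the means were 29.9 ± 1.06% in DON and 14.4 ± 3.18% in A-DON (SD, n = 3 each). The share of Nefm was 38.7 ± 2.71% in DON and 49.2 ± 2.72% in A-DON, and that of Nefl 31.5 ± 3.07% and 36.4 ± 1.56% (SD, n = 3 each). Within DON the Nefh share stayed between 28.7% and 30.8% while the summed normalized counts of the 3 genes ranged 4.85-fold, from 19448 to 94242.

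**Figure D3:**
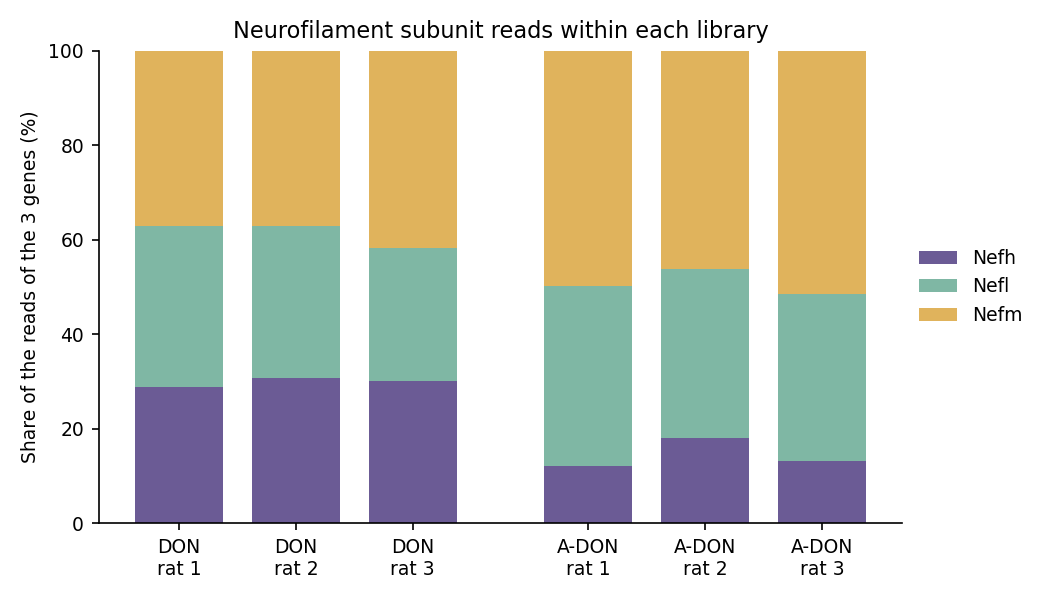
Share of Nefh, Nefl and Nefm among their summed reads in each library, in percent, stacked to 100%; each bar is 1 rat. The Nefh part (bottom) takes 28.7% to 30.8% in the DON rats and 12.02% to 18.0% in the A-DON rats.

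Whether the genes differed from each other in their change was tested on pairwise ratios. For each of the 10 pairs among the 5 genes, the log2 ratio of the 2 values was taken in each library and compared between groups by an exact two-sided permutation test, whose smallest possible p with 3 rats against 3 is 0.1. In 4 of the 10 pairs the groups did not overlap, and all 4 were the pairs that include Nefh. The ratio of Nefh to Nefl was 0.841, 0.961 and 1.07 in DON replicates 1 to 3 and 0.314, 0.503 and 0.372 in A-DON replicates 1 to 3. On the log2 scale this ratio was -0.07 ± 0.17 in DON and -1.36 ± 0.34 in A-DON (SD, n = 3 each), so the ratio was 2.45-fold lower in A-DON (exact permutation p = 0.1, Benjamini-Hochberg adjusted p = 0.25 over the 10 pairs). The ratio of Nefh to Nefm was 2.68-fold lower in A-DON, with the same exact permutation p and adjusted p.

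The same ratios were taken for the rest of the transcriptome. Among all other tested genes, the ratio to Nefl was lower in A-DON without overlap in 57.2%, and the ratio to Nefm in 45.4%. Lower ratios to Nefl and to Nefm were therefore common and not particular to Nefh. The ratio to Nefh was higher in A-DON without overlap in 8.70% of all other tested genes. All 4 other genes were among these. Nefl and Nefm had the ratios given above, Map2 was 3.09-fold higher relative to Nefh, and Gap43 was 3.70-fold higher (exact permutation p = 0.1 and adjusted p = 0.25 for each).

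For the other 6 pairs, among Nefl, Nefm, Map2 and Gap43, the ratios overlapped between groups, with exact permutation p from 0.4 to 0.9 (adjusted p of 0.67 to 0.9). Of these the Nefm to Nefl ratio varied least within either group, with 1.08, 1.16 and 1.49 in DON replicates 1 to 3 and 1.30, 1.29 and 1.46 in A-DON replicates 1 to 3. Gap43 relative to Nefl ranged more widely in DON, from 0.143 to 0.483, than in A-DON, from 0.351 to 0.434. The larger fold of Gap43 than of Nefl was thus within the spread of that ratio among DON rats. Relative to Map2, Gap43 differed by 1.20-fold between the groups (exact permutation p = 0.6).

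**Figure D4:**
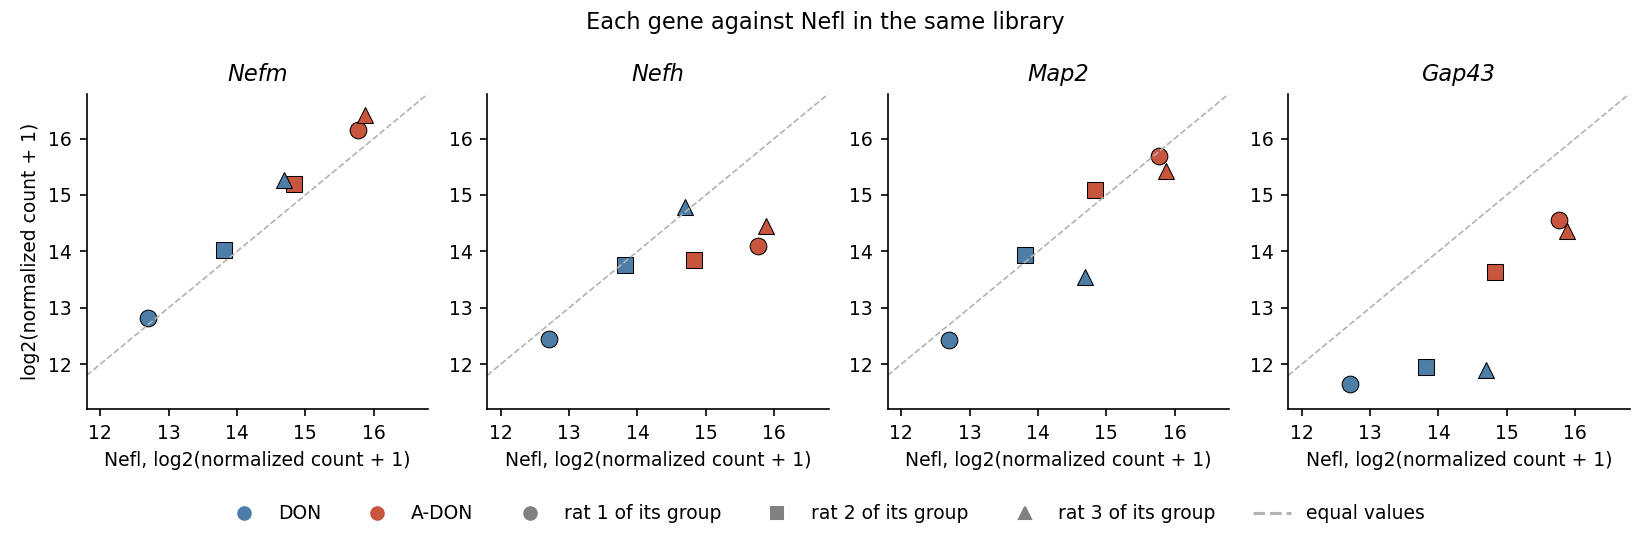
Nefm, Nefh, Map2 and Gap43 against Nefl in the same library, on the log2(normalized count + 1) scale; blue is DON, red is A-DON, and the dashed line marks equal values. Nefm follows Nefl through both groups, Nefh lies lower against Nefl in the 3 A-DON rats than in the 3 DON rats, and Gap43 is nearly flat across the 3 DON rats.

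DON replicate 3 and A-DON replicate 2, a pair chosen after the values were seen, had nearly the same neurofilament sum, 94242 and 81311 normalized counts, and the same was true of Nefl, with 26510.4 and 29107. Their Nefh values were 28353 and 14644, their Map2 values 11955 and 34772, and their Gap43 values 3793 and 12646. The pair joins the DON rat with the most neurofilament reads to the A-DON rat with the fewest, so these values are a description of 2 rats only.

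Likeness between profiles was measured as the root mean square distance between log2 values, centred on each gene's mean, over the 6 libraries, among the more abundant part of the tested genes. Of 9757 other genes, Nefl was the nearest to Nefm and Nefm was the second nearest to Nefl, at a distance of 0.16. Nefh stood at place 789 from Nefl, at 0.68, and at place 478 from Nefm, at 0.75. Seen from Nefh, Nefl was at place 1549, Nefm at 3122, Map2 at 6880 and Gap43 at 8085. Map2 and Gap43 were at a distance of 0.40, Gap43 at place 340 from Map2 and Map2 at place 335 from Gap43. Map2 stood at place 103 from Nefl, at 0.46, and at place 79 from Nefm, at 0.57. Seen from Map2, Nefl was at place 475 and Nefm at place 783. The distances include the difference between the groups, which many genes share, and are a description only. The 2 genes nearest to Gap43 outside the 5 were ENSRNOG00000007410, at 0.080, and ENSRNOG00000007455, at 0.091; likeness over all 6 libraries fixes a fold change near that of Gap43. ENSRNOG00000007410 had 331, 418 and 349.6 normalized counts in DON replicates 1 to 3 and 2178, 1203 and 2082 in A-DON replicates 1 to 3. It shares the order of rats of Gap43 within A-DON, but it was picked for this likeness, so the order is no separate result. The nearest genes to the mean neurofilament profile were farther away, at 0.17 and 0.22. The files pair no name with these IDs.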

How the data were processed

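Per the labels' protocols, the 6 libraries were stranded mRNA-seq read on an Illumina NovaSeq. STAR 2.5.3a, StringTie 1.3.1c, FastQC 0.11.2 and the build rn6 are named, with no roles, in the submitters' processing notes. What counted the reads, with which strand setting and annotation, is not given in the sources used here. A single table deposited by the authors holds log2 values. Undoing the log2 and subtracting 1 gave whole multiples of 1 step per library in 100% of values (tolerance 0.05 reads), so the values are log2(read count / size factor + 1). The linear values are called normalized counts and the whole numbers recovered reads, which summed to 24961512 to 31189687 per library. This depth bears on counting error and not on the differences between rats.

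As with the 5 genes, all lists were chosen with earlier results of these data known. The names belong to the IDs as given with that choice. The table's IDs carry no names and 0 of them were found in RefSeq's table, so the axon gene list and cell type markers planned by symbol could not be applied. Beside the 5 genes, the rule for naming genes in the text, written for this work, took the nearest profiles to Gap43 and to the neurofilament mean; IDs are printed for Gap43 only.

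limma 3.58.1 (R 4.3.3, statmod 1.5.0) compared A-DON with DON on the deposited values, with an intensity trend and robust moderation, over all 19515 tested genes, and was tested on simulated data. In the simulated data few genes changed, and all genes had the same variability beyond counting error. They therefore do not stand for genes that vary as much between rats as the neurofilament genes. The scale of all fold changes is log2(value + 1). Ratios between genes used exact permutation tests (scipy 1.17.1). Alternatives were other scalings, filters, moderation and pseudocount (0.1), voom, leaving out each library in turn, and a block for the rat number. Python 3.11.15 and matplotlib 3.10.9 drew the plots.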

Additional observations from a re-analysis of the deposited data

How the results depend on the processing

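Leaving out 1 library in turn gave 12 to 9286 called genes over the table and 0 to 4 of the 5 genes, against 6930 and 2 with all libraries. Without A-DON replicate 1 or 3, 0 of the 5 genes passed (limma) and 2 had an unadjusted p under 0.05 in each fit. The log2 fold changes ran from 1.24 to 2.23 for Nefl, 1.28 to 2.50 for Nefm, -0.15 to 1.03 for Nefh, 1.66 to 2.41 for Map2 and 2.17 to 2.63 for Gap43. The log2 ratio differences kept their sign in 7 of the 10 pairs; they ran from -0.022 to 0.61 for Map2 to Nefl, from -0.29 to 0.52 for Map2 to Nefm and from -0.12 to 0.98 for Gap43 to Nefm. The smallest exact p with 5 libraries is 0.2, and all 4 pairs with Nefh stayed at it. Groups that do not overlap stay apart when a library is left out. For these 4 pairs both the p of 0.2 and the kept sign were therefore fixed in advance and are no further evidence. Quantile normalization called 4 of the 5 genes, with log2 fold changes of 2.03 for Nefl and 2.27 for Nefm, and 36.4% of all tested genes. Nefl also passed with equal library totals (1.85) and voom (1.75), and the cause was not tested. No other scaling, filter, moderation or pseudocount changed a call of the 5 genes, TMM scaling and the pseudocount of 0.1 included.

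With the rat number as a replicate block, 0 genes of the table passed and none of the 5 did (limma), while 7601 genes and 4 of the 5 had an unadjusted p under 0.05; Map2 kept a log2 fold change of 2.09 (adjusted p = 0.071) and Gap43 2.35 (0.066). That fit has fewer residual degrees of freedom. Same-numbered rats showed no shared deviation from the means of their groups (r across genes of -0.17, -0.24 and -0.083), and no A-DON rat correlated best with its own number. The planned count tests with edgeR and DESeq2 were not run, although whole reads could be recovered from the log2 values. Only voom was run on the recovered reads. The 5 genes had at least 3366 recovered reads in every library.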
